A study of Mus musculus with 33 samples.

Results

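The livers of newborn mice at 6 h after birth were set against those of fetuses at gestation day 21 (F21), with 3 arrays at 6 h and 3 at F21. These 6 arrays were chosen by their titles from the 33 arrays of the series, and no measured value entered the choice. All 6 samples were total RNA of whole liver from mice whose strain is labelled C57/BL, hybridised to Affymetrix MGU74Av2 arrays, and the study design places the liver animals in normal oxygen. Each time was sampled as 3 mice. Litter, sex, feeding and hybridisation batch are not given in the sources used here, so their part in the changes could not be tested. The 3 livers taken 2 h after birth entered the signal filter and the same fit. The p-values of this fit rest on the spread between samples within a group, pooled over livers of all 3 ages. This spread was also moderated across probe sets, so it is not that of the 6 arrays alone. The 6 room-air lungs of the same ages (3 at 6 h and 3 at F21) were used only for comparison.

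At birth the placental supply of glucose ends and the liver begins to make glucose from amino acids, lactate and glycerol, while milk brings fat in place of the glucose that fetal tissues burn. Insulin falls and glucagon, catecholamines and glucocorticoids rise. Genes of gluconeogenesis and amino acid breakdown are known to answer the hormones that rise, and genes of fat and sterol synthesis to be driven by insulin and by the sterol-sensing SREBP factors. The late fetal liver also secretes most plasma proteins and still holds blood-forming cells, so a change in whole-liver RNA cannot tell fewer cells of a type from less RNA per cell.

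Of 5693 probe sets tested with limma (moderated variances, Benjamini-Hochberg adjusted p under 0.05), 105 passed, which was 1.84% of those tested. Of these, 51 were higher (0.896%) and 54 lower (0.949%) in 6 h livers than in F21 livers. Over all 5693, passed or not, 2817 had a positive change and 2876 a negative one. Counts in the gene lists below are to be read beside these shares, under which a short list would hold few calls or none. Changes are given as log2 of the MAS5 signal, an Affymetrix summary of the probes of 1 probe set, with signals under 10 set to 10. The signals of the 6 h and F21 arrays did not overlap for any of the 105, and this also held for 19.1% of all probe sets tested. At an unadjusted p under 0.05 there were 764 probe sets, and the methods' test, a 2-sample test at p under 0.01, called 211 probe sets and 21 after the same adjustment. That test was run here on log2 signals of the same 5693 probe sets, without the detection filter of the methods. With no filter on low signals limma called 35 probe sets and ended 45 of the 68 calls of named genes below. This loss is stated below for some of these genes only. Others that lost their call were Cyp3a11 (adjusted p = 0.24), Cebpa (0.20), Hamp (0.20) and Egr1 (0.19). With the 30% of probe sets that have the highest median signal over all 33 arrays of the series, most of them lung, it called 56. Leaving out 1 of the 6 arrays left between 44 and 70 calls.

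Within a group the arrays correlated at 0.864 to 0.878 in 6 h livers and 0.88 to 0.89 in F21 livers, and 6 h with F21 arrays at 0.84 to 0.861. The share of probe sets under a signal of 10 was 16.9% to 18% at 6 h and 16.6% to 17.8% at F21. The ratio of the 3′ to the 5′ probe set of Gapdh, a sign of RNA integrity, was 1.3, 1.46 and 1.32 at 6 h, against 1.34, 1.7 and 1.86 at F21, so 2 of the 3 F21 arrays were above every 6 h array. The part of this in the results was not tested. Of the 8 hepatocyte markers on the array, 7 were at a signal of 319.6 or more on all 6 arrays, and Hnf4a was dimmer, at 259 to 342 at 6 h and 135 to 309 at F21. The sums of the 8, to which Alb and Apoa1 give most, overlapped (123779 to 139259 at 6 h, against 137660 to 148679 at F21).

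Genes of glucose release were among the firmest increases. G6pc, the subunit of glucose-6-phosphatase that frees glucose into the blood, had signals of 3314, 3574 and 3304 in 6 h livers, against 1055, 1296 and 1147 in F21 livers (log2 change 1.55, SE 0.17, adjusted p = 0.00046). The 3 livers at 6 h lay within a narrow band, far above every F21 liver. Pck1, the cytosolic enzyme that commits oxaloacetate to glucose, had 518, 931 and 710.5 in 6 h livers, against 195, 205 and 210.5 in F21 livers (log2 change 1.78, SE 0.22, adjusted p = 0.00083). The 6 h values were more scattered than for G6pc and still did not reach down to the F21 values. At 2 h, G6pc had 6336, 4070.3 and 3769 and Pck1 1034, 966 and 659, so both were already high at the earlier age (log2 change from F21 1.98 and 2.10, limma adjusted p = 0.00017 and 0.00029).

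Most other genes of the pathway did not pass. Of 14 tested genes in the list of gluconeogenesis, 2 rose, 1 fell and 11 did not pass, with a median log2 change of 0.016 against -0.00438 over all probe sets tested. Pcx, which makes oxaloacetate from pyruvate, was at -0.11 (adjusted p = 0.84), Fbp1, the bisphosphatase of the pathway, at -0.084 (adjusted p = 0.87), and Slc37a4, the carrier that brings glucose 6-phosphate to G6pc, at 0.53 (adjusted p = 0.12). The member that fell was Cebpa, a factor that drives several liver genes. Both G6pc and Pck1 kept their calls whichever of the 6 arrays was left out.

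Tat, the enzyme that starts tyrosine breakdown and a classic gene of the newborn liver, had 610.0, 1028 and 854 in 6 h livers, against 173, 239 and 213 in F21 livers (log2 change 1.98, SE 0.23, adjusted p = 0.00052). All 3 livers at 6 h stood above the F21 range by a wide gap. Bhmt, which remethylates homocysteine with betaine, had 2252, 4612 and 2879 in 6 h livers, against 992, 847 and 1218 in F21 livers (log2 change 1.62, SE 0.29, adjusted p = 0.011). The second 6 h liver was the highest, and a second, dimmer probe set of Bhmt changed by 0.76 (adjusted p = 0.29). Aass, the first enzyme of lysine breakdown, changed by 1.26 (adjusted p = 0.014), and Hal, which starts histidine breakdown, by 1.26 (adjusted p = 0.033).

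These 4 were the members that passed among 25 tested genes of amino acid breakdown, none fell, and the median over the list was 0.012. The call of Bhmt was lost without F21 replicate 2 (adjusted p = 0.063), that of Aass without 3 of the arrays (up to 0.064) and that of Hal whichever of the 6 was left out (up to 0.13). The 7 tested genes of the urea cycle, which disposes of the nitrogen set free, included none that passed. Arg1, its last enzyme, had 1712, 3407 and 2225 in 6 h livers, against 1169.7, 1326 and 1395 in F21 livers, which did not overlap (log2 change 0.86, adjusted p = 0.12), and Cps1, its first, was at 0.46 (adjusted p = 0.33).

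Upp2 and a pair of mitochondrial carriers also rose. Upp2, a liver uridine phosphorylase that splits uridine into uracil and a sugar phosphate, had 708, 637 and 862 in 6 h livers, against 112, 110.3 and 86.9 in F21 livers. This was 7.12-fold higher and had the smallest p of all probe sets tested (log2 change 2.83, SE 0.22, adjusted p = 4.5e-05). Slc25a25, a mitochondrial carrier that exchanges ATP-magnesium for phosphate, had 545, 587 and 591 in 6 h livers, against 189, 143 and 126 in F21 livers (log2 change 1.93, SE 0.22, adjusted p = 0.00046). Slc25a47, a carrier of the inner mitochondrial membrane found mainly in liver, changed by 1.15 (adjusted p = 0.0024) and was named after its values were seen. All 3 kept their calls whichever of the 6 arrays was left out.

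**Figure D1:**
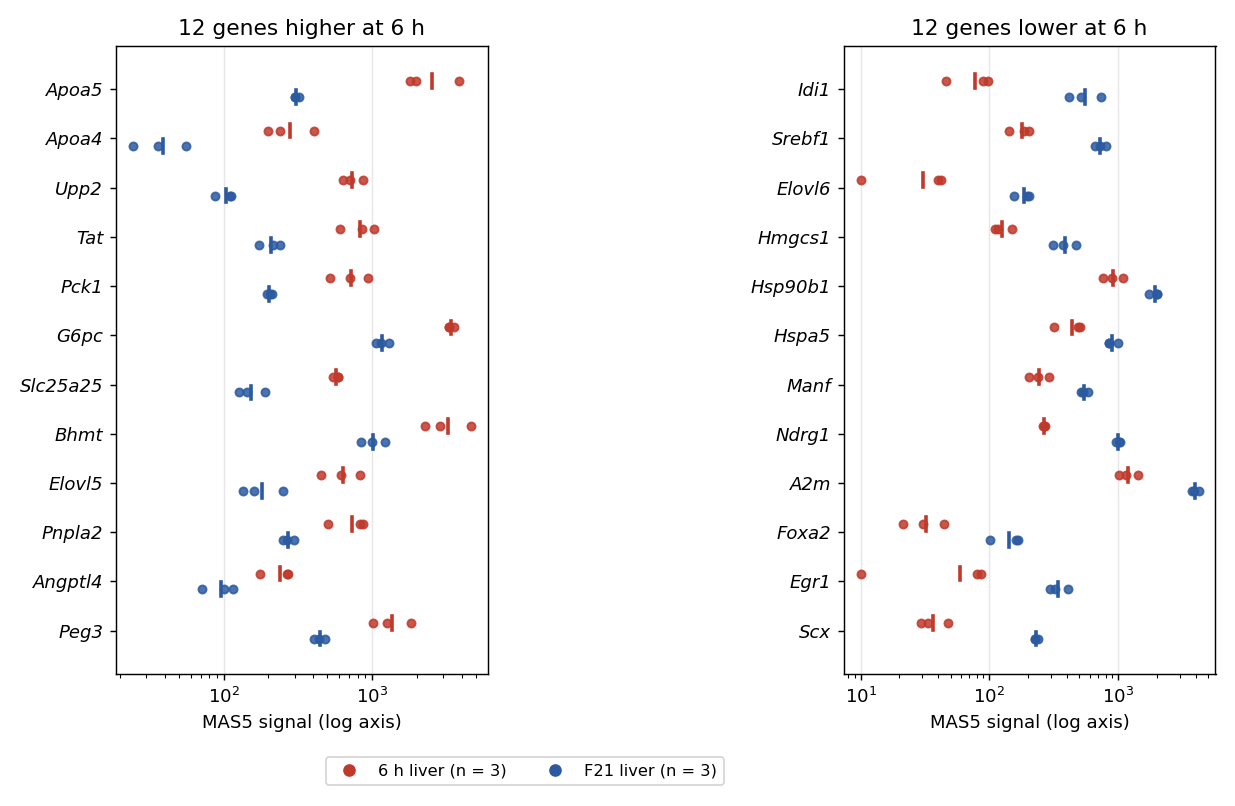
MAS5 signals (log axis) of 12 genes that were higher and 12 that were lower at 6 h, 1 point per array and a bar at the mean of 3 arrays, with 6 h livers above F21 livers in each row. The points of the 2 groups do not overlap for any of the 24 genes. This held for all 105 probe sets that passed, so it does not set these genes apart. The second 6 h array is apart from the others for genes such as Apoa5, Egr1 and Bhmt.

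Regulatory sequence was available for some of these genes. The cAMP response element is the site through which CREB answers glucagon, and the letters TNACGTCA, a form of it, were searched on both strands of RefSeq promoters running from 250 bases before to 50 after the start site (build GRCm38.p6). Of 32851 promoters 2.93% held them, of 3663 tested genes with a promoter 5.35%, and of 33 genes that rose 18.2% (6 genes: Elovl5, Pck1, Peg3, Retreg1, Serinc3 and Slc25a25). G6pc had no match in its window, and 2 of 37 genes that fell had one. The sites of Pck1 and Slc25a25 are shown in capitals, 5′ to 3′ with 30 bases on each side, as 2 examples of genes that passed at 2 h and at 6 h. The Pck1 site lies 93 to 86 bases before the start and the Slc25a25 site 150 to 143 bases before it, where it reads on both strands.
Pck1, chr2:173152950-173153017, plus strand: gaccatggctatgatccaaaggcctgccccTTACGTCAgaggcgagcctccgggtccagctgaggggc
Slc25a25, chr2:32424179-32424246, minus strand: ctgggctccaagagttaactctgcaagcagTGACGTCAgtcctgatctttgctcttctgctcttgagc

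Some genes that carry or release fat were among the largest increases. Apoa5, an apolipoprotein that speeds the clearing of triglyceride from plasma, had 1805, 3856 and 1977 in 6 h livers, against 303, 323 and 301 in F21 livers (log2 change 2.96, SE 0.26, adjusted p = 0.00011). Every 6 h liver was far above the tight F21 values, and the other 2 probe sets of Apoa5 rose as well, by 2.43 (adjusted p = 0.00083) and 3.83 (adjusted p = 0.002). Apoa4, an apolipoprotein of triglyceride-rich particles, had 238, 405 and 198 in 6 h livers, against 55.7, 24.4 and 36.1 in F21 livers (log2 change 2.87, SE 0.43, adjusted p = 0.0037). The F21 signals were low and the 6 h signals well above them, and with no filter on low signals the call was lost (adjusted p = 0.076). At 2 h Apoa5 had 1312, 2133 and 2246 and Apoa4 110.2, 357 and 269, overlapping the 6 h values in both cases.

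The 2 were alone among the lipoprotein genes in rising. Of 18 tested apolipoprotein and lipoprotein assembly genes, 2 rose, 1 fell and 15 did not pass, and the median was -0.24. The secreted structural proteins Apoa1 and Apob were at -0.0029 (adjusted p = 0.995) and -0.42 (adjusted p = 0.48), and Apoa2 was at -0.48 (adjusted p = 0.068). The fall was Apoh, a plasma glycoprotein also used as a hepatocyte marker (log2 change -0.52, adjusted p = 0.034), a call that was lost when any 1 of the 6 arrays was left out (adjusted p up to 0.12).

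Pnpla2, the lipase that opens the breakdown of stored triglyceride, had 500.3, 862 and 823 in 6 h livers, against 298, 269 and 253 in F21 livers (log2 change 1.38, SE 0.21, adjusted p = 0.0036) and was named after its values were seen. No 6 h liver came down to the F21 range. Angptl4, a secreted inhibitor of lipoprotein lipase that fasting induces, had 269, 271 and 175 in 6 h livers, against 116, 99.9 and 70.9 in F21 livers (log2 change 1.32, SE 0.27, adjusted p = 0.028). Its groups were apart by a smaller gap, a second probe set was at 0.82 (adjusted p = 0.18), and the call was lost without 4 of the 6 arrays (adjusted p up to 0.11). Elovl5, which lengthens polyunsaturated fatty acids, had 834, 454 and 621 in 6 h livers, against 135, 249.8 and 161 in F21 livers (log2 change 1.81, SE 0.25, adjusted p = 0.0022), with the first 6 h liver highest and no overlap, and lost its call with no filter (adjusted p = 0.051).

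Most genes of fatty acid oxidation did not pass. The list of fatty acid oxidation and ketogenesis also holds related genes such as Angptl4, the lipase inhibitor above. Of its 27 tested genes, 1 rose (Angptl4), 2 fell and 24 did not pass, with a median of 0.16. Cpt1a, the gate for fatty acids into mitochondria, had 650.5, 1821 and 808 in 6 h livers, against 354, 314 and 367 in F21 livers. Its groups did not overlap, the second 6 h liver was far above the others, and the change did not pass (log2 change 1.52, adjusted p = 0.073). Cyp4a14, a fatty acid hydroxylase under PPAR-alpha, was highest in that same liver, with 215, 1081 and 288 in 6 h livers, against 135, 66.4 and 89.6 in F21 livers (log2 change 2.13, adjusted p = 0.13). The 2 that fell were Fabp1, the main fatty acid carrier of hepatocytes (log2 change -0.75, adjusted p = 0.0065), and Acaa2, a thiolase of mitochondrial oxidation (log2 change -0.55, adjusted p = 0.045). The call of Fabp1 was lost without F21 replicate 2 (adjusted p = 0.051) and that of Acaa2 whichever of the 6 arrays was left out (up to 0.19), and a second, dim probe set of Fabp1 was at 0.83 (adjusted p = 0.58).

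Genes of sterol and fat synthesis gave some of the largest falls. Idi1, an enzyme that isomerises the isoprene unit for cholesterol, had 97.9, 46.2 and 89.5 in 6 h livers, against 419, 737 and 517 in F21 livers (log2 change -2.87, SE 0.46, adjusted p = 0.0053). No 6 h liver came near the lowest F21 liver. Hmgcs1, which makes the precursor of mevalonate, had 111, 118 and 151 in 6 h livers, against 311, 467 and 376 in F21 livers (log2 change -1.60, SE 0.32, adjusted p = 0.025). Its 6 h values were close together below a wider F21 range.

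All 14 tested genes of cholesterol synthesis had a negative change, with a median of -1.08, although only these 2 passed. Among the 12 that did not pass, Sqle, the squalene epoxidase, was at -1.56 (adjusted p = 0.074), Dhcr7, which finishes the pathway, at -1.80 (adjusted p = 0.26), and Ebp, the sterol isomerase, at -0.10 (adjusted p = 0.89), the smallest of the list. Idi1 kept its call whichever of the 6 arrays was left out and lost it with no filter (adjusted p = 0.099), where no gene of the list passed, and Hmgcs1 lost it without 5 of them (adjusted p up to 0.11, without F21 replicate 2).

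Srebf1, the gene of the SREBP factor that drives fat synthesis, had 187, 143 and 205 in 6 h livers, against 720.1, 658 and 806 in F21 livers (log2 change -2.04, SE 0.30, adjusted p = 0.0029). The 3 livers at 6 h were well under every F21 liver, and the call was lost with no filter (adjusted p = 0.059). Elovl6, which lengthens palmitate, had 10.1, 40 and 42.1 in 6 h livers, against 196, 156 and 203 in F21 livers (log2 change -2.83, SE 0.63, adjusted p = 0.041). The first 6 h liver was barely above the floor of 10, and a second, dim probe set was at -1.23 (adjusted p = 0.57). The call was lost without 5 of the 6 arrays (adjusted p up to 0.15) and with no filter (adjusted p = 0.19).

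Of 14 tested genes of fatty acid synthesis, 1 rose (Elovl5), 2 fell and 11 did not pass, and the median was -0.33. Scd2, a desaturase of the fetal and newborn liver, had 340.2, 103 and 306 in 6 h livers, against 782, 1131 and 932 in F21 livers, which did not overlap and did not pass (log2 change -2.09, adjusted p = 0.10). Fasn, the fatty acid synthase, was at -1.87 (adjusted p = 0.26), and Scd1, the desaturase of adult liver, at -0.015 (adjusted p = 0.992). Of single genes named after their values were seen, Pemt, which methylates phosphatidylethanolamine to phosphatidylcholine, changed by -0.94 (adjusted p = 0.011), and Psat1, an aminotransferase of serine synthesis, by -1.14 (adjusted p = 0.025). Both calls were lost when some arrays were left out (adjusted p up to 0.057 and 0.11).

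**Figure D2:**
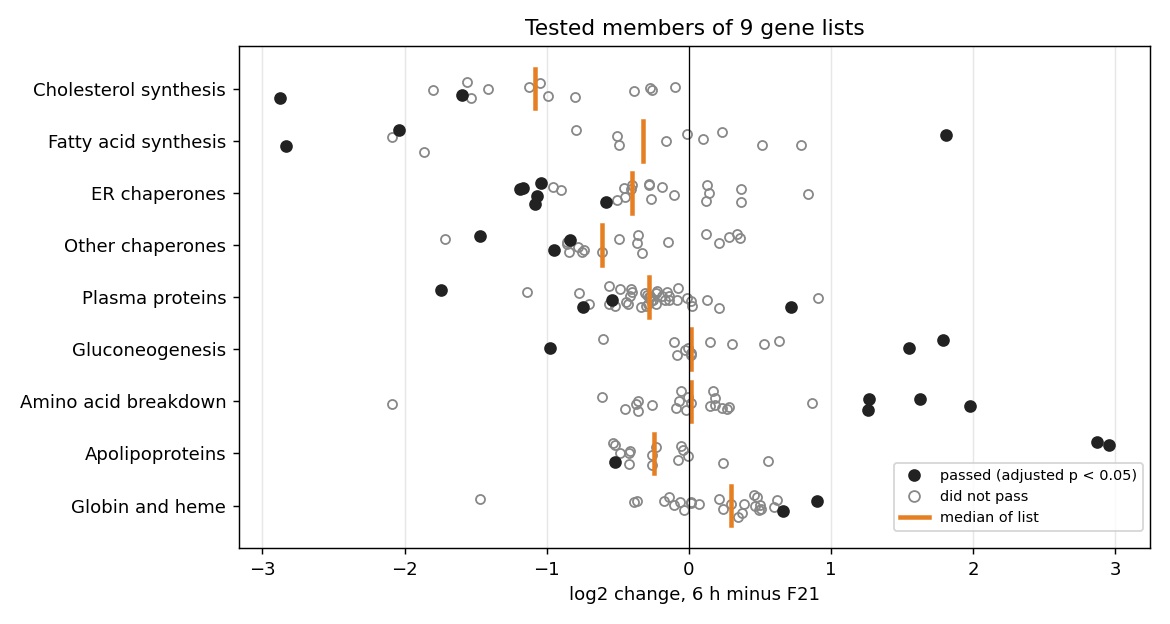
Log2 change at 6 h against F21 for every tested gene of 9 lists, 1 point per gene (filled where it passed), with the median of each list as a bar. All 14 genes of cholesterol synthesis are below 0, and the passing genes of gluconeogenesis and amino acid breakdown are far from the median of their own list. So are Apoa5 and Apoa4 among the apolipoproteins, while Apoh, which fell, is within the range of genes that did not pass.

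Chaperones of the endoplasmic reticulum (ER), where secreted proteins are folded, gave 6 falls. Hspa5 (BiP), the ER member of the Hsp70 family, had 317, 506 and 487 in 6 h livers, against 843, 1007 and 850.0 in F21 livers (log2 change -1.07, SE 0.20, adjusted p = 0.017). The lowest F21 liver was well above the highest 6 h liver. Hsp90b1 (Grp94), the ER member of the Hsp90 family, had 758, 1099 and 894 in 6 h livers, against 1745, 2019.9 and 1993 in F21 livers (log2 change -1.08, SE 0.17, adjusted p = 0.005). All F21 livers were high, and every 6 h liver was well under the lowest of them.

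Manf, a small secreted ER protein, had 239, 292 and 204 in 6 h livers, against 514, 586 and 537 in F21 livers (log2 change -1.17, SE 0.19, adjusted p = 0.0062). Creld2, another ER stress protein, had 74.2, 61.3 and 90.9 in 6 h livers, against 192, 159 and 161 in F21 livers (log2 change -1.19, SE 0.27, adjusted p = 0.043), and Dnajc3, a BiP co-chaperone, had 113, 138 and 109.8 in 6 h livers, against 298, 274 and 183 in F21 livers (log2 change -1.04, SE 0.24, adjusted p = 0.045). Creld2 and Dnajc3, members of the ER list, were named after their values were seen. In each case the groups were apart, by the smallest margin for Dnajc3, whose F21 replicate 3 was the lowest of its group. Sec61a1, the channel through which new proteins enter the ER, fell less, by 0.58 (adjusted p = 0.041), with a second probe set at -0.68 (adjusted p = 0.061).

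These were 6 of 24 tested ER chaperones and folding genes that fell. None rose, 18 had a negative change and the median was -0.40. Xbp1, a factor that induces many of them, was at -0.90 (adjusted p = 0.11), Pdia4 and Pdia6, disulfide isomerases, were at -0.40 (adjusted p = 0.64) and -0.28 (adjusted p = 0.72), and Canx and P4hb, a lectin chaperone and an isomerase, had positive values, 0.14 (adjusted p = 0.89) and 0.37 (adjusted p = 0.62). With 1 of the 6 arrays left out, 2 or 3 of the list fell, and with no filter 1 did (Manf), with Hsp90b1 at an adjusted p of 0.052. Hsp90b1 and Manf kept their calls in all 6 such fits, Hspa5 lost its call in 4 (adjusted p up to 0.091), Dnajc3 in 5 (up to 0.17), and Creld2 (up to 0.16) and Sec61a1 (up to 0.15) in all 6. The other 2 probe sets of Dnajc3 were at -0.32 and -0.19, and neither passed.

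The ER stress response element, CCAAT followed by 9 bases and CCACG, is the site through which ATF6, with NF-Y, is known to induce ER chaperones. Searched on both strands of the same RefSeq promoters, the element stood in 39 of 32851 promoters, or 0.119%. It stood in the promoters of 9 of the 3663 tested genes that have one (0.246%), in 4 of 37 genes that fell (10.8%) and in 0 of 33 that rose. The 4 are Hspa5, Hsp90b1, Creld2 and Dnajc3, and Manf and Sec61a1 have no entry in the table. Their elements are shown because these 4 are the genes that fell and hold it. They changed by -1.04 to -1.19 on the log2 scale, and Manf, with no promoter to search, by -1.17. Each is printed 5′ to 3′ along the gene with the element in capitals and 30 bases on each side, and the capitals read as the reverse complement in Creld2 and at the second site of Hsp90b1.
Hspa5, chr2:34771995-34772073, plus strand: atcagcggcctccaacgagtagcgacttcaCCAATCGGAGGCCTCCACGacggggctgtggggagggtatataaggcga
Hsp90b1, chr10:86705608-86705686, minus strand: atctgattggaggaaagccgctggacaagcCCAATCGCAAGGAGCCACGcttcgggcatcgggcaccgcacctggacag
Hsp90b1, chr10:86705503-86705581, minus strand: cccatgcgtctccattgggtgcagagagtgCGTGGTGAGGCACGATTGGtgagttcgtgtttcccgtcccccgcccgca
Creld2, chr15:88819490-88819568, plus strand: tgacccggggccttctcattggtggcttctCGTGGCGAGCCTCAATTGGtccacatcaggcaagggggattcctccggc
Dnajc3, chr14:118937797-118937875, plus strand: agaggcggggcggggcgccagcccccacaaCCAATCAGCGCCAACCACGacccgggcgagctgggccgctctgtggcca

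The element begins 65 bases before the start in Hspa5, 105 in Dnajc3, 126 in Creld2, and 212 and 107 in Hsp90b1. The other 5 tested genes that hold it did not pass: Pdia6 at -0.28 (adjusted p = 0.72), Canx at 0.14 (adjusted p = 0.89), and 3 genes outside the list, Adcy3 at -0.73, Ptgdr2 at -0.03 and Pan2 at 0.17. A match of letters is a description of the promoter and was not tested as a site.

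The next 5 genes, outside that list, were chosen singly after their values were seen, and no list was counted for them. Rrbp1, which binds ribosomes to the ER membrane, had 175, 161 and 212 in 6 h livers, against 413, 485 and 483 in F21 livers (log2 change -1.34, SE 0.21, adjusted p = 0.005), with no overlap. Ostc, a subunit of the enzyme that adds sugar chains, changed by -0.85 (adjusted p = 0.024), Mcfd2, part of the receptor that exports clotting factors from the ER, by -0.87 (adjusted p = 0.013), and Fkbp11, an ER prolyl isomerase, by -0.92 (adjusted p = 0.049). Retreg1, a receptor that directs ER membrane to autophagy, had 371, 283 and 385 in 6 h livers, against 111, 106 and 126 in F21 livers and rose (log2 change 1.59, SE 0.25, adjusted p = 0.005). Rrbp1 and Retreg1 kept their calls in each fit without 1 of the 6 arrays, and Retreg1 lost it with no filter (adjusted p = 0.052), while Mcfd2 lost its call in 2 of them (adjusted p up to 0.077), Ostc in 4 (up to 0.094) and Fkbp11 in 6 (up to 0.17).

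Among cytosolic chaperones 3 fell. Hspa8 (Hsc70), the constitutive cytosolic Hsp70, had 532, 934 and 635 in 6 h livers, against 1176, 1342 and 1428 in F21 livers (log2 change -0.95, SE 0.19, adjusted p = 0.028). The groups did not overlap, with the second 6 h liver nearest to F21. Fkbp4, a cochaperone of steroid receptors, changed by -0.84 (adjusted p = 0.024), and Hsph1, an exchange factor for Hsp70, by -1.47 (adjusted p = 0.044). These 3 fell, none rose and 18 did not pass among 21 tested cytosolic and mitochondrial chaperones, whose median was -0.61. Stip1, which links Hsp70 to Hsp90, was at -1.72 (adjusted p = 0.29), and Hspd1, the mitochondrial chaperonin, at -0.33 (adjusted p = 0.66). Each of the 3 lost its call with no filter and without 5 of the 6 arrays (adjusted p up to 0.11 for Hspa8, 0.095 for Fkbp4 and 0.15 for Hsph1).

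Of the genes of secreted plasma proteins 3 fell and 1 rose. A2m, the broad protease inhibitor alpha-2-macroglobulin, had 1014, 1420.2 and 1146 in 6 h livers, against 3873, 3772 and 4217 in F21 livers (log2 change -1.74, SE 0.19, adjusted p = 0.00046). The 3 F21 livers were far above every 6 h liver, and the call was kept whichever of the 6 arrays was left out. Of 43 tested plasma protein genes, 37 had a negative change and the median was -0.28, while 2876 of all 5693 probe sets tested were negative. Besides A2m the falls were Vtn, the adhesion protein vitronectin (log2 change -0.54, adjusted p = 0.034), and C8g, a chain of complement component 8 (log2 change -0.74, adjusted p = 0.041). Alb, albumin, was at -0.08 (adjusted p = 0.81).

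The 1 plasma protein that rose was Cp, the copper ferroxidase ceruloplasmin, with 1689, 1699 and 1949 in 6 h livers, against 1068, 1071 and 1100.2 in F21 livers (log2 change 0.72, SE 0.13, adjusted p = 0.011), in 2 narrow bands that did not touch. Hamp, the peptide hormone hepcidin that blocks iron export, had 1063, 188 and 1555 in 6 h livers, against 91.5, 136 and 75.4 in F21 livers (log2 change 2.79, SE 0.57, adjusted p = 0.027). Its second 6 h liver was only slightly above the highest F21 liver while the other two were far higher, and the call was lost without 5 of the 6 arrays (adjusted p up to 0.11). Apcs, serum amyloid P, fell by 0.74 (adjusted p = 0.018). Of 26 tested acute phase and iron genes these 3 passed, and the median was -0.041. The calls of Vtn and C8g were lost whichever of the 6 arrays was left out (adjusted p up to 0.13 and 0.14), that of Cp without 3 (up to 0.060) and that of Apcs without 4 (up to 0.095).

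Among regulators, Egr1, an immediate early zinc finger factor induced by growth signals and stress, had the largest fall of all named genes. Its signals were 80.1, 10 and 86.1 in 6 h livers, against 297, 323 and 408 in F21 livers (log2 change -3.05, SE 0.62, adjusted p = 0.027). The second 6 h liver was at the floor of 10, the other two were still far under the lowest F21 liver, and the call was lost whichever of the 3 F21 arrays was left out (adjusted p up to 0.11). Foxa2, a forkhead factor of liver and other endoderm, had 30.5, 21.5 and 44.6 in 6 h livers, against 101, 167 and 161 in F21 livers (log2 change -2.18, SE 0.41, adjusted p = 0.018). Its 6 h values were low, at most 44.6, and the call was lost without F21 replicate 2 or 3 (adjusted p up to 0.11). Cebpa, a factor that drives liver differentiation and energy genes, had 1005, 1091 and 1056 in 6 h livers, against 2144, 1932 and 2125 in F21 livers (log2 change -0.98, SE 0.22, adjusted p = 0.041) and lost its call whichever of the 6 arrays was left out (adjusted p up to 0.13).

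These were the 2 liver transcription factors that fell among 21 tested, with none higher and a median of 0.15. Hnf4a, a central factor of hepatocytes, was at 0.63 (adjusted p = 0.39), and Nr1i3, the xenobiotic receptor CAR, at 0.81 (adjusted p = 0.074). Gadd45b, a stress-induced growth arrest gene, rose by 1.68 (adjusted p = 0.033), with a second probe set at 1.97 (adjusted p = 0.37), and it was the 1 increase beside the fall of Egr1 among 26 tested immediate early genes. Its call was lost without 5 of the 6 arrays (adjusted p up to 0.11).

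Wnt4, a secreted Wnt ligand, had 158, 114 and 120.5 in 6 h livers, against 12.9, 7.8 and 11.2 in F21 livers (log2 change 3.52, SE 0.56, adjusted p = 0.0053). The F21 signals were at or near the floor of 10, so the size of the change depends on that floor, while all 6 h signals were above 100. The call was lost without 6 h replicate 1 (adjusted p = 0.065). Klf4, the Krüppel-like factor that the study followed in lung, was below the signal filter in liver and was not tested. Its brighter probe set had signals of 26.8, 37 and 13.9 in 6 h livers, against 21, 36.9 and 29 in F21 livers, so the groups overlapped near background. Of 6 tested Krüppel-like factors none passed, and Klf9, which glucocorticoids induce, had 245, 242 and 224 in 6 h livers, against 169, 143 and 91.6 in F21 livers (log2 change 0.86, adjusted p = 0.092).

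Peg3, a paternally expressed imprinted zinc finger gene, had 1249, 1829 and 1009 in 6 h livers, against 405, 439 and 484 in F21 livers (log2 change 1.58, SE 0.22, adjusted p = 0.0022). All 6 h livers were far above the highest F21 liver, 1 of its other 2 probe sets rose by 2.00 (adjusted p = 0.00073) and the other was at 0.27 (adjusted p = 0.70). With no filter its call was lost (adjusted p = 0.052). Peg3 was the 1 gene that passed among 20 tested growth and imprinted fetal genes. Dlk1, a fetal membrane protein of the Notch family, had 606, 591 and 659 in 6 h livers, against 848, 1081 and 990.2 in F21 livers and did not pass (log2 change -0.65, adjusted p = 0.074), nor did Cdkn1c, a cell cycle inhibitor (log2 change -0.80, adjusted p = 0.13), or Igf2, the fetal growth factor (log2 change 0.12, adjusted p = 0.73). Afp, alpha-fetoprotein, was at -0.56 (adjusted p = 0.25).

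Ndrg1, a gene known to be induced by low oxygen, had 261, 265 and 269 in 6 h livers, against 1014, 965 and 1027 in F21 livers (log2 change -1.92, SE 0.20, adjusted p = 0.00046). The arrays of each age agreed closely, and a second probe set fell by 1.40 (adjusted p = 0.015). Tmsb10, a thymosin that binds actin monomers and was named after its values were seen, had 1166, 984 and 1074 in 6 h livers, against 2247, 2406 and 2333 in F21 livers (log2 change -1.12, SE 0.12, adjusted p = 0.00046). Also named in that way were Tubb2a, a tubulin of growing cells, which changed by -1.32 (adjusted p = 0.002) with a second, dim probe set at 0.82 (adjusted p = 0.74), and Anxa2, a membrane-binding annexin, which changed by -1.11 (adjusted p = 0.024). Ndrg1, Tmsb10 and Tubb2a kept their calls whichever of the 6 arrays was left out, and Anxa2 lost its call in 4 of these fits (adjusted p up to 0.11).

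Of the other genes with large changes, Akr1c6, an aldo-keto reductase that acts on steroids, fell by 1.75 (adjusted p = 0.011), and Bop1, a factor of ribosome assembly, by 1.53 (adjusted p = 0.037). Pithd1 fell by 1.68 (adjusted p = 0.041), but its second probe set was at 1.24 (adjusted p = 0.33), in the other direction. Adprhl2, a hydrolase that removes ADP-ribose, rose by 2.52 (adjusted p = 0.034), and its second probe set was at 0.52 (adjusted p = 0.56). All 4 calls were lost when some array was left out (adjusted p up to 0.068 for Akr1c6, 0.15 for Bop1, 0.16 for Pithd1 and 0.14 for Adprhl2).

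Among 37 tested genes of cytochrome P450 and conjugation enzymes 1 rose and 1 fell. Cyp3a11, a main drug-metabolising P450 of mouse liver, had 732, 1656 and 977 in 6 h livers, against 274, 480.4 and 358 in F21 livers (log2 change 1.55, SE 0.35, adjusted p = 0.041), with no overlap and the second 6 h liver the highest. Ces3a, a carboxylesterase, fell by 0.76 (adjusted p = 0.049). The call of Cyp3a11 was lost without 5 of the 6 arrays (adjusted p up to 0.15) and that of Ces3a whichever was left out (up to 0.15). None passed among 12 genes of bile acid handling, 17 of glycolysis, 6 of glycogen metabolism, 23 antioxidant genes, 45 subunits of oxidative phosphorylation, 20 cytosolic ribosomal proteins and 29 of matrix. Over all probe sets tested 1.84% passed, so no call in lists of these sizes is near that share.

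Among genes of red cell formation 2 were higher. Alas2, the first enzyme of heme synthesis in red cells, had 2411, 2120.0 and 2132 in 6 h livers, against 1515, 1411 and 1285 in F21 livers (log2 change 0.66, SE 0.13, adjusted p = 0.018). Slc4a1 (band 3), the anion exchanger of the red cell membrane, had 4049, 4940.4 and 4863 in 6 h livers, against 2106, 3019 and 2341 in F21 livers (log2 change 0.90, SE 0.19, adjusted p = 0.035). The lowest 6 h liver was above the highest F21 liver in both. Aqp1, a water channel of red cells and vessels named after its values were seen, rose by 0.97 (adjusted p = 0.0062). Of 27 tested globin and heme genes these 2 rose, none fell, and the median was 0.29, with the adult globin Hba-a1 at -0.036 (adjusted p = 0.93) and the embryonic globin Hbb-y at -1.47 (adjusted p = 0.22). The calls of Alas2 and Slc4a1 were lost without 4 and 5 of the 6 arrays (adjusted p up to 0.090 and 0.13).

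Of the summed signal of the 7 erythroid markers, Hba-a1 alone made up 81.1% to 89.8%, and the sums overlapped between ages, at 48721 to 55613 in 6 h livers against 45259 to 55317 in F21 livers. Without Hba-a1, left out after the values were seen, the other 6 summed to 8457, 9127 and 9206 in 6 h livers, against 5449.5, 6431 and 5632 in F21 livers, with no overlap. Slc4a1 and Alas2, the 2 that passed, gave most of these sums, and without them the sums of the rest overlapped. Of the 7 markers, 4 had a positive change and 3 a negative one. The negative ones were Hba-a1, Klf1 (-0.063, adjusted p = 0.89) and Car1 (-0.37, adjusted p = 0.81). The sum of 12 granulocyte markers was lower at 6 h (17610 to 19652, against 21099 to 23107). S100a8 and S100a9 gave much of this sum, and without them the sums of the 2 ages overlapped. All 11 tested members had a negative change, and Ltf, lactoferrin of neutrophil granules, fell by 0.65 (adjusted p = 0.049), a call that was lost whichever of the 6 arrays was left out (adjusted p up to 0.17). The sum of 11 lymphocyte markers was higher (1343 to 1506, against 951 to 1147), and Ighm, the heavy chain of IgM, gave most of the gain, with 812, 628 and 613 in 6 h livers, against 488, 416 and 397 in F21 livers (log2 change 0.65, adjusted p = 0.092). The other 10 overlapped in sum (694 to 756, against 535 to 699.7). Of the 6 tested lymphocyte markers none passed, 4 had a positive change and 2 a negative one, Vpreb1 at -0.33 (adjusted p = 0.77) and Vpreb3 at -0.13 (adjusted p = 0.92), parts of the receptor of early B cells. Sums of the 10 macrophage markers overlapped (3239 to 3925, against 3217 to 3525), and 6 lung markers summed to 341 to 518, against 212 to 352. Of the lymphocyte markers 3 and of the lung markers 2 were under a signal of 50 on all liver arrays. The part of these marker differences in the changes above was not tested.

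Of 51 tested cell cycle genes 1 passed, which was 1.96%, near the 1.84% of all probe sets tested. It rose, and the median was 0.045. The gene was Ccnb2, a mitotic cyclin, with 1015, 954 and 1032 in 6 h livers, against 561, 592 and 600.2 in F21 livers (log2 change 0.78, SE 0.12, adjusted p = 0.0059), in tight bands well apart. H2ax, a histone of the DNA damage response named after its values were seen, had 672, 668 and 716 in 6 h livers, against 439, 459.5 and 476 in F21 livers (log2 change 0.58, SE 0.14, adjusted p = 0.049) and lost its call whichever of the 6 arrays was left out (adjusted p up to 0.16). Cirbp, a cold-inducible RNA-binding protein also named in that way, had 266, 231 and 262 in 6 h livers, against 141, 81.2 and 107 in F21 livers (log2 change 1.24, SE 0.23, adjusted p = 0.017) and lost its call without 4 of them (up to 0.075).

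The 2 h livers showed how much of this was present earlier. Between 2 h and F21, 52 of the same 5693 probe sets passed (0.913%), and 39 of them were among the 105 that passed at 6 h. The 2 comparisons share the F21 arrays, so this overlap is a count and not independent evidence. Between 6 h and 2 h, which share no arrays, 1 probe set passed (0.0176%), and 372 had an unadjusted p under 0.05.

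That probe set was of Scx (scleraxis), a basic helix-loop-helix factor of tendon precursors. Its signals were 224, 240.4 and 226 at F21, 168, 240.5 and 177 at 2 h and 29.5, 47.4 and 33.4 at 6 h. The level at 6 h was far under both earlier ages, which overlapped each other, with a log2 change of -2.42 from 2 h (SE 0.26, adjusted p = 0.0021) and -2.68 from F21 (adjusted p = 0.00021). Its call against F21 was kept whichever of the 6 arrays was left out. Its call against 2 h was lost with no filter on low signals.

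Hamp and Hal had lower values at 2 h than in most 6 h livers. Hamp had 398, 246 and 336 at 2 h, under 2 of the 3 livers at 6 h, and Hal 84, 98.3 and 105, under all 3. In contrast Slc25a25 had 957, 654 and 544 and Tat 1267, 1055 and 748 at 2 h, around or above their 6 h levels. Ndrg1 had 599.9, 381 and 315, between F21 and 6 h. Apart from Scx, no difference between 6 h and 2 h passed.

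**Figure D3:**
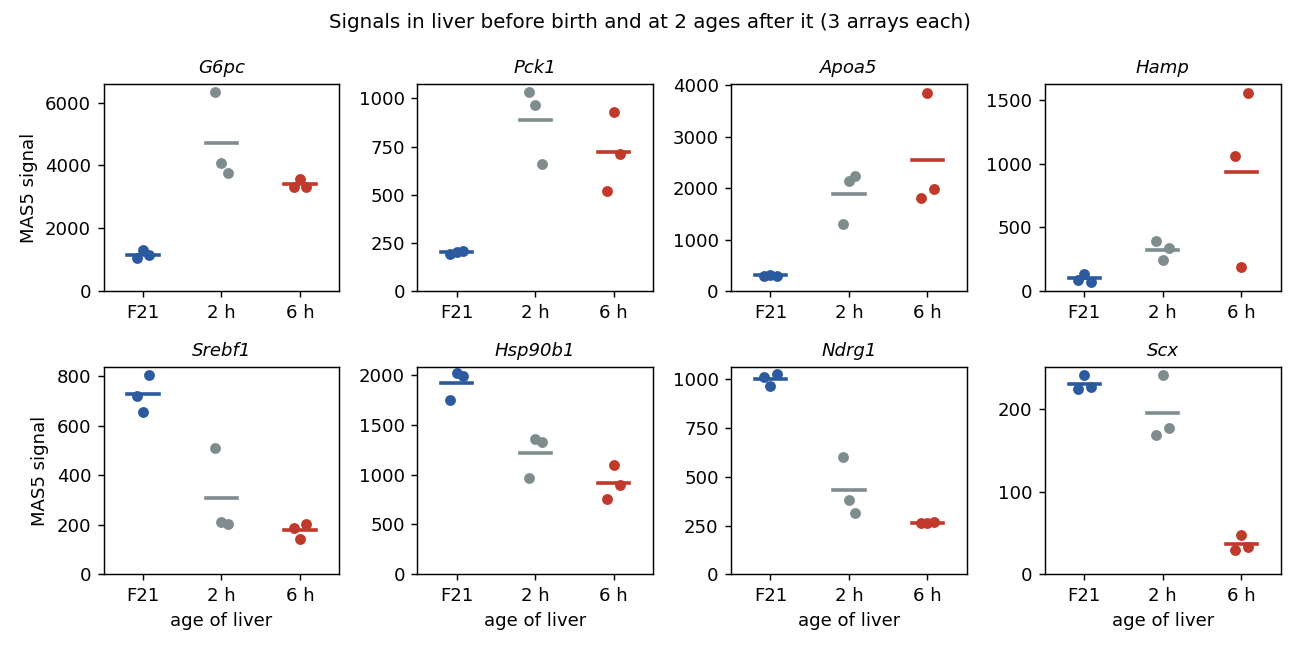
MAS5 signals of 8 genes in livers at F21, 2 h and 6 h, 1 point per array and a bar at the mean of 3 arrays, on linear axes that start at 0. G6pc, Pck1 and Apoa5 are already high at 2 h, and Scx is low only at 6 h (29.5 to 47.4).

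The same ages of lung in room air show which of these changes differed between organs. In a joint fit of 12 arrays the 6 h change in liver minus that in lung was tested for 6431 probe sets, and 56 passed (0.871%), 16 in the direction of a higher change in liver and 40 in that of a lower one. Leaving out 1 of the 12 arrays left 27 (without F21 liver replicate 1) to 64 (without 6 h lung replicate 3). Of the 105 probe sets that passed in liver, 12 were among the 56, and 10 of these carry a gene name. Srebf1 was unlike in the 2 organs, with a log2 change of -2.04 in liver and 0.087 in lung (adjusted p of the difference 0.0036). Ndrg1 changed by -1.92 in liver and 0.25 in lung (adjusted p = 0.0076), Foxa2 by -2.18 in liver and 0.55 in lung (0.011), and G6pc by 1.55 in liver and 0.11 in lung (0.0068). Ccnb2 had 0.78 in liver and -0.99 in lung (adjusted p = 0.0019), and H2ax 0.58 in liver and -0.79 in lung (0.0068).

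**Figure D4:**
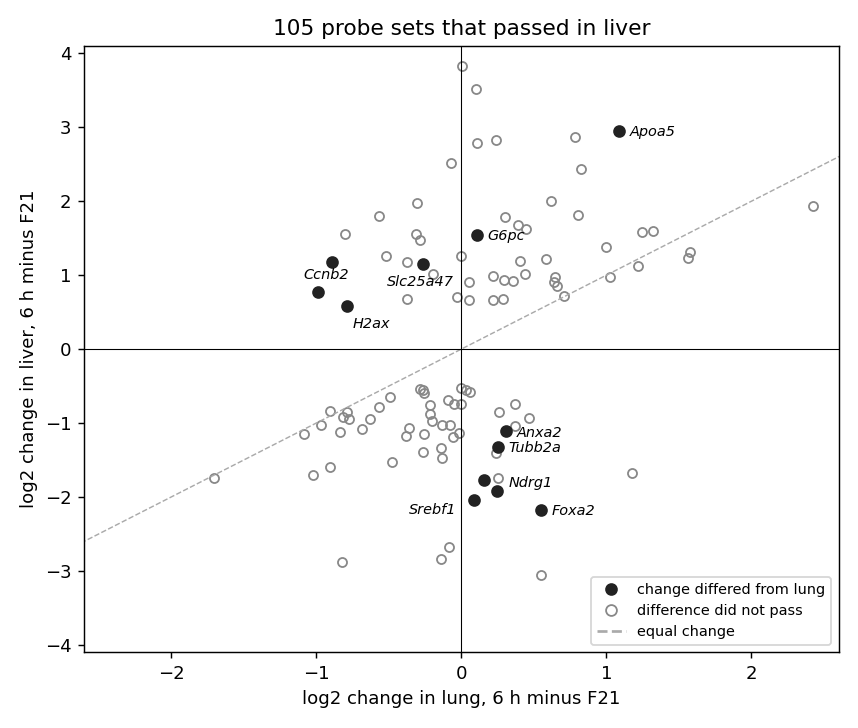
Log2 change at 6 h against F21 in liver (vertical) and in lung (horizontal) for the 105 probe sets that passed in liver, filled where the difference between organs passed in the joint fit of 12 arrays. Foxa2, Srebf1, Ndrg1, Tubb2a and Anxa2 are low in liver and near 0 or above in lung, and Ccnb2 and H2ax are above 0 in liver and below it in lung.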

How the data were processed

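Total RNA of whole liver was hybridised to Affymetrix MGU74Av2 arrays. The deposited table holds MAS5 signal intensity on a linear scale, which the authors scaled per array to a common target intensity, and the submitters' processing notes name MAS5. It has 12488 probe sets, of which 66 controls were left out. Detection calls were not used here. Values below 10 were raised to 10 before the log2 step. Probe sets entered the tests where they were in the top 40% of signals in at least 3 of the 9 liver arrays. Groups were compared in 1 fit of the 9 liver arrays (for liver against lung, of 12 arrays) with limma 3.58.1 in R 4.3.3, with a mean-variance trend and Benjamini-Hochberg adjustment, and the pipeline was tested on simulated data. The number of arrays limits the precision.

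Names came from the platform annotation, updated through Entrez: 10833 probe sets had 1 symbol and 396 several, for 8251 genes. Of the 105 probe sets that passed, 92 had 1 symbol, and 23 have a suffix that marks probes shared with related transcripts. The probe set with the highest mean liver signal stood for a gene, which gave 4490 genes tested, of which 37 rose and 49 fell. The genes named were the 12 largest rises and 12 largest falls among those that passed without overlap between the groups. To these were added up to 4 passing members of each list, up to 2 others of lists with fewer than 4, and markers. Genes named after their values were seen are marked. Members and lists were chosen with earlier results of these data known. Alternatives were another floor, a pseudocount of 16, quantile normalization, other filters, the 2 groups alone, a replicate block, the methods' test and leaving out each array.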

Additional observations from a re-analysis of the deposited data

Results flagged for a closer look

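For 56 probe sets the 6 h change differed between liver and lung in limma's joint fit of 12 arrays. Of the named genes that had also passed in liver, 10 were among them, and the difference is given as the log2 change in liver minus that in lung. It was -2.72 for Foxa2, whose lung signals were 237, 247 and 266 at 6 h, against 133, 162 and 232 at F21. It was -2.17 for Ndrg1 and -2.13 for Srebf1, whose lung signals overlapped between ages in both cases. Tubb2a differed by -1.57 and Anxa2 by -1.42.

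In the other direction Apoa5 differed by 1.87 (the probe set that stands for the gene), although its lung signals were also higher at 6 h (144, 122 and 124, against 61.7, 48.2 and 76.3 at F21). Ccnb2 differed by 1.76 and H2ax by 1.37, and the lung signals of Ccnb2 were 192, 229.9 and 250 at 6 h, against 405, 389.9 and 543 at F21. G6pc differed by 1.44 and Slc25a47 by 1.42. The limma adjusted p of these 10 differences ran between 0.0019 (Ccnb2) and 0.030 (Slc25a47).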

How the results depend on the processing

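For 6 h against F21, where 105 probe sets passed, the count stayed within 1.5 times of that with quantile normalization (104), the 2 groups alone (110), a floor of 1 (105) and a pseudocount of 16 (107). No filter left 35 calls, over 12422 probe sets tested, and the 30% of highest median signal left 56. That median ran over all 33 arrays, most of them lung, so this filter dropped many liver genes. It kept 6 of the 43 plasma protein genes. The methods' test gave 211 at an unadjusted p under 0.01 and 21 after adjustment. With 1 liver array left out the count ran between 44 (without F21 replicate 2) and 146 (without 2 h replicate 1), and it was under 70 without F21 replicate 1 (51) or 3 (45) or 6 h replicate 1 (50) or 3 (58). Fewer arrays enter each of these fits.

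Of 68 named genes that passed, none reversed in any setting, and 24 kept their call without each of the 6 arrays. In the other settings, 6 kept their call wherever they were tested. Of these 6, Upp2 and Wnt4 were not tested with the 30% of highest median signal. With no filter 45 of the 68 lost their call, among them 7 of the 24 (Apoa4, Elovl5, Hsp90b1, Idi1, Peg3, Retreg1 and Srebf1, adjusted p between 0.051 and 0.099), and 17 kept it both there and without each array. In that setting 1 ER chaperone fell in place of 6, no cytosolic chaperone in place of 3 and no gene of cholesterol synthesis in place of 2, and 1 gene of amino acid breakdown rose in place of 4. With the 30% of highest median signal over all 33 arrays, 3 of the 38 named genes still tested lost their call. Quantile normalization ended the calls of Acaa2, Ces3a, H2ax and Ltf, and the cause was not tested. Between 6 h and 2 h, no filter gave 0 calls by limma, and leaving out 1 array gave 1 to 3. For liver minus lung, leaving out 1 array gave 27 to 64 calls, and no other setting moved the count of 56 by over 1.5 times.

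Samples with the same number did not deviate together between 6 h and F21 (correlations of -0.0154 to 0.0137). Between 6 h and 2 h the correlations were 0.0946, 0.077 and 0.0129, and 2 of the 3 samples at 6 h correlated best with their own number. None was over 0.1, so the numbers were taken as names. With a replicate block 102 probe sets passed at 6 h against F21, 1 between 6 h and 2 h and 54 for liver minus lung, and the calls of Bop1, C8g, Ces3a, Creld2, Dnajc3, Elovl6, H2ax, Hsph1, Ltf and Pithd1 were lost. Of the 3 samples at 6 h, 1 correlated best with its own number at F21. Signals near the floor of 10 limit the size of the changes of Wnt4, Egr1 and Elovl6.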

Other observations

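Among the 3 livers at 6 h, the one farthest from the other 2 on the log2 scale was replicate 1 for 1878 of the 5693 tested probe sets, replicate 2 for 2057 and replicate 3 for 1758. Single genes differed more between these livers, and the following were chosen after their values were seen. Replicate 2 was the highest for Cpt1a (651, 1821 and 808 at 6 h), Cyp4a14 (215, 1081 and 288) and Arg1 (1712, 3407 and 2225). It was the lowest for Hamp (1063, 188 and 1555) and for Ttr, the plasma carrier transthyretin (1399, 319.6 and 1208). At 2 h, Cpt1a had 486.5, 1331 and 1234 and Arg1 1690.2, 3093 and 2996, with replicate 1 the lowest for both.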
